A study of Mus musculus with 51 samples.

Results

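The regions described here were 851 distal H3K4me3 sites of the mouse genome that were marked in leptonema and zygonema and not later in meiotic prophase I (MPI). They were chosen from 25578 sites, which were made by merging the 10 H3K4me3 peak lists of the series. A chosen site had a peak in both leptonema lists and both zygonema lists, had no peak in the 6 lists of early pachynema, late pachynema and diplonema, and lay more than 500 bp from the 5′ end of any GENCODE M21 transcript. Of the 25578 merged sites, 13069 were distal by that limit. The H3K4me3 calls of these sites were therefore set by the choice and are given as a description, with no test. All nuclei came from whole testis of wild-type adult male C57Bl/6J mice. Nuclei of primary spermatocytes were sorted with antibodies to proteins inside the nucleus (SCP3, STRA8, H1t and SCP1) into the 5 stages from leptonema and zygonema through early and late pachynema to diplonema. Leptotene nuclei came from a separate sort that used STRA8, and a sorted population could hold some nuclei of neighbouring stages. H3K4me3 (EpiCypher 13-0028 antibody) was profiled in experiments 1 and 2 of each stage, H3K4me2/3 (Abcam ab8580, which binds both methylation states) in experiment 2, and H3K9ac in experiment 1. The labels name the H3K9ac libraries H3K9Ac but list their antibody (Active Motif 39918) as one against H3K4me3, whereas the methods of the study list that reagent as anti-H3K9ac.

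H3K4me3 stands at the start sites of active genes. In meiocytes it is also written away from promoters by PRDM9, a zinc-finger protein that binds a DNA motif and methylates neighbouring nucleosomes, and such sites can become hotspots of the DNA double-strand breaks (DSBs) that start recombination. SPO11 makes these breaks early in MPI, and they are repaired as the homologous chromosomes synapse. H3K9ac is an acetyl mark of open chromatin, found at promoters and also at hotspots.

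The DNA at the centres of the sites shared short words. On odd-numbered chromosomes 2 words of 8 bp tied for the largest excess of sites within 100 bp of the centre over windows of the same length between 650 bp and 850 bp away. CAGCAGCA (TGCTGCTG on the other strand), which comes first in the alphabet, was held by 26 of 435 sites against a mean of 6.5 in the flanks, and GCAGCACC (GGTGCTGC) by 24 against 4.5. On even-numbered chromosomes, which had no part in choosing the word, 22 of 416 sites held CAGCAGCA (5.29%, exact 95% binomial interval 3.34% to 7.90%) against a mean of 9 in the flanks, and 19 held GCAGCACC (4.57%) against a mean of 3. CAGCAGCA was no more frequent at these sites than at all distal sites of the even-numbered chromosomes, of which 5.78% held it. Several of the leading words (GGTGCTGC, GATGCTGC and GATGCTAC, as read on one strand) could be written together as GNTGCTNC, where N is any base. This joint form was chosen after the words had been seen. Counted on both strands within 100 bp of the centre, it was present at 228 of the 851 sites (26.8%, 23.8% to 29.9%) against 8.99% in a flank. The share was 21.9% over all 25578 merged sites, 23.4% over all distal sites and 32.0% over distal sites of zygonema alone. The match is a description of the letters and does not show that a protein was bound.

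The central 300 bases of 3 sites are shown, because these were the sites among the 10 widest with the joint form near the centre (it was not found there at the other 7). The sequences are from the plus strand of RefSeq GRCm38.p6 (mm10), with each GNTGCTNC on either strand in capitals.
Site in Enpp6, chr8:47003121-47003420: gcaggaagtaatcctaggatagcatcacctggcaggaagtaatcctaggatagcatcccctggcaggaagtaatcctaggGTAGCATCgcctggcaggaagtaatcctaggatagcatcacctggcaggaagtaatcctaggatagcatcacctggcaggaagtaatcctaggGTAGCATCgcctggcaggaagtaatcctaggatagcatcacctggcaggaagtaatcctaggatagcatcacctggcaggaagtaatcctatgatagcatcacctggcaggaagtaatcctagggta
Site in Ankfn1, chr11:89611731-89612030: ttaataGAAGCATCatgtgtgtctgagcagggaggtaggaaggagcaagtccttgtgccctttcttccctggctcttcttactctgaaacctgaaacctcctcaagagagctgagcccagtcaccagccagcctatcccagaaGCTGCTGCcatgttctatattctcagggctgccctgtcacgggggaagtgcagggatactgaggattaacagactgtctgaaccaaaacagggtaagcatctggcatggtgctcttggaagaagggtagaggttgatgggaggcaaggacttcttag
Intergenic site, chr2:147562076-147562375: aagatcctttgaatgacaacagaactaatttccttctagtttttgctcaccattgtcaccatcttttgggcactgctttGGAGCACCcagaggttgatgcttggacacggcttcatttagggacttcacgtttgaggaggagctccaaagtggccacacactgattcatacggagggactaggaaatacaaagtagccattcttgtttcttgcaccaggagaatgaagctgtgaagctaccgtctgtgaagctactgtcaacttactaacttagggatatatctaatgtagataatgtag
The first of these lies in a tandem array. In the 300 bases shown, 95.5% of bases were equal to the base 31 bp further on, whereas the best period between 10 bp and 80 bp gave 33.9% in the Ankfn1 sequence and 31.1% in the intergenic one. Over the whole Enpp6 site the joint form occurred 12 times.

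**Figure D1:**
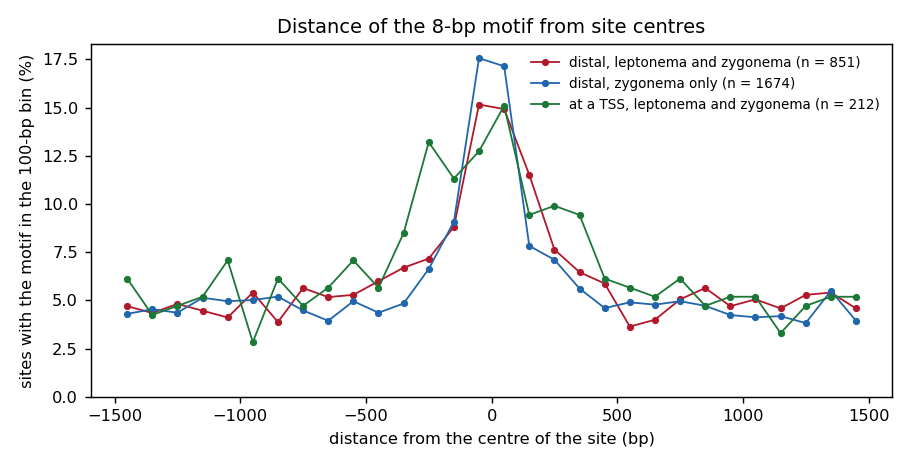
Share of sites (vertical axis, %) with the 8-bp motif on either strand in each 100-bp bin, by distance from the centre of the site (horizontal axis, bp). In the bins next to the centre, 15.2% and 14.9% of the 851 sites held it, and 17.6% and 17.1% of the distal sites marked in zygonema alone.

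The choice of sites turned mainly on leptonema. Among distal sites with a peak in the other 3 leptonema and zygonema lists and in no later list, the remaining list held 83.8% for leptonema experiment 1, 66.2% for leptonema experiment 2, 98.5% for zygonema experiment 1 and 93.0% for zygonema experiment 2. Just outside the rule lay 677 distal sites with 3 of the 4 early calls and no later call, of which 600 lacked a leptonema list. Another 6 distal sites had all 4 early calls and 1 later call, and 90 had 2 or more later calls. The nearest 5′ end was 503 bp away at the closest of the chosen sites (chr7:19600703-19601791, an intron of Clasrp), and the closest site left out by the distance limit was 492 bp from one (chr3:39634273-39635567, near Gm42781). At 22 of the 851 sites (2.59%) a transcript 5′ end of the RefSeq annotation lay within 500 bp, so that these were distal by GENCODE only.

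H3K4me2/3 peaks were called mostly at the same stages. Their lists did not enter the choice, but their antibody also binds H3K4me3, and H3K4me3 lists of the same experiment number chose the sites. The choice therefore largely set the direction of these shares. The H3K4me2/3 list of leptonema held a peak at 849 of the 851 sites (99.8%, exact 95% binomial interval 99.2% to 100.0%) and that of zygonema at all 851. The share was 14.1% (120 sites, 11.8% to 16.6%) in early pachynema and 4.11% (35 sites, 2.88% to 5.67%) in late pachynema. By diplonema it was 2.47% (21 sites, 1.53% to 3.75%). Over all 25578 merged sites the H3K4me2/3 shares were 69.5%, 78.1%, 48.6%, 51.9% and 51% in the same order, and over all distal sites 47.2%, 66%, 15.4%, 18.3% and 17.9%. The early pachynema share of the chosen sites was near that of all distal sites. With the wider peaks of each list, which also cut the H3K4me2/3 lists and left 324 sites, it was 4.01%. With equal H3K4me3 list sizes it was 24.0% of 217 sites. The share of all distal sites was not computed under these settings. The intervals count sites only and do not cover the error between libraries, since each stage had 1 H3K4me2/3 list.

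H3K9ac peaks at these sites were found mostly in zygonema. The zygonema list held a peak at 815 of the 851 sites (95.8%, 94.2% to 97.0%), whereas leptonema had 20 (2.35%, 1.44% to 3.61%), early pachynema 6 (0.705%) and late pachynema and diplonema none (0 of 851, where 3 sites would be 0.353% and the exact 95% binomial interval reaches 0.433%). The leptonema share was 4.32% with the wider peaks of each list and 8.76% with equal H3K4me3 list sizes. Over all merged sites the H3K9ac shares from leptonema to diplonema were 10.9%, 53.8%, 28.2%, 6.64% and 1.97%, and over all distal sites 0.62%, 42.7%, 3.24%, 0.681% and 0.612%. The zygonema share of the chosen sites was above that of all distal sites, as was the leptonema share. All distal sites include ones without these H3K4me3 calls. The 212 sites with the same H3K4me3 calls within 500 bp of a 5′ end had 93.9% (89.7% to 96.7%) in zygonema. Their leptonema share was 10.8% (7.00% to 15.8%), above that of the chosen sites. The H3K9ac lists held 2823, 16003, 7744, 1727 and 516 peaks from leptonema to diplonema, the order of the shares over all merged sites. At the 851 sites early pachynema had a lower share than leptonema although its list was longer, and the part of list length in the shares was not tested. The H3K4me2/3 lists ranged from 17561 to 30943 peaks. In bulk nuclei, a mark on more nuclei and more of the mark per nucleus cannot be told apart, and a site with no peak can carry the mark below the threshold of the caller.

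**Figure D2:**
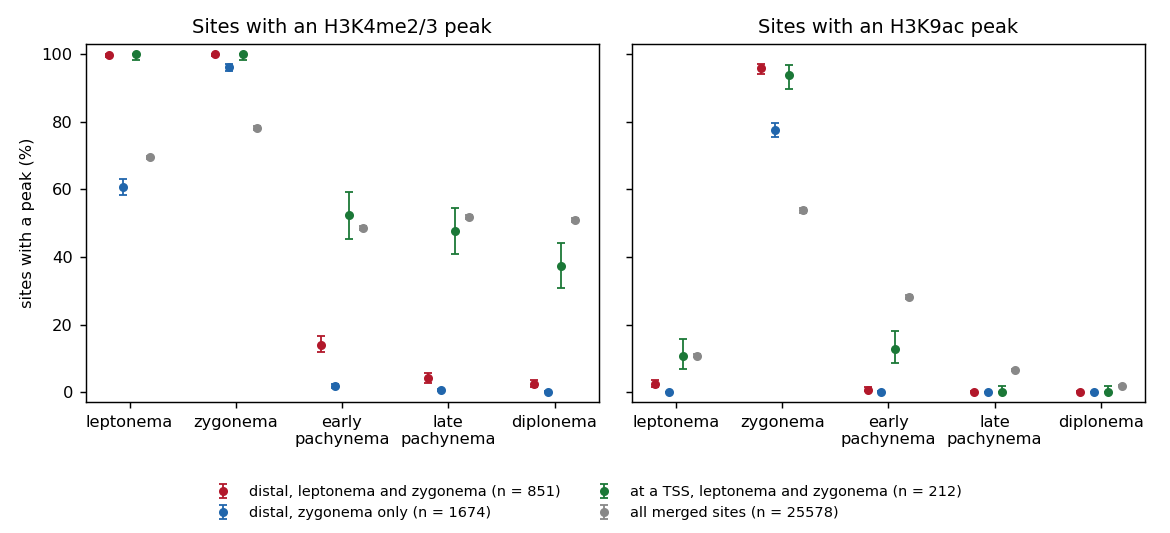
Share of sites (vertical axis, %) with an H3K4me2/3 peak (left) or an H3K9ac peak (right) in the 5 stages (horizontal axis), for 4 sets of sites. Points are shares and bars exact 95% binomial intervals over sites, with 1 list per stage. The 851 sites (red) were at 99.8% and 100% for H3K4me2/3 in leptonema and zygonema, and at 2.35% and 95.8% for H3K9ac.

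The early and later stages are set side by side over lists. The mean share of the 851 sites with a peak was 74.5% over the 4 leptonema and zygonema lists of both marks and 3.56% over the 6 later lists, a difference of 70.9 percentage points. For H3K4me2/3 alone the difference was 93.0 percentage points. Its antibody also binds the mark that chose the sites, and its lists carry the number of an experiment whose H3K4me3 lists chose them, so that the choice largely set this direction and no p is given for it or for both marks together. For H3K9ac alone the difference was 48.8 percentage points (two-sided exact permutation p = 0.1, the smallest that 2 lists against 3 allow). Its early shares were 2.35% in leptonema and 95.8% in zygonema, against a later mean of 0.235%, so the difference came almost wholly from the zygonema list. The H3K9ac lists also carry the number of an experiment whose H3K4me3 lists chose the sites. The test permuted single lists of different stages as replicates and could not pass the threshold, so it decides nothing.

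The sites differed in the later stages at which H3K4me2/3 was called. The H3K4me2/3 list pattern was leptonema and zygonema at 712 sites (83.7%) and the same with early pachynema at 98 (11.5%). A further 39 sites had a late pachynema or diplonema peak, of which 14 had H3K4me2/3 at all 5 stages. The 6 sites with an H3K9ac peak in early pachynema were all among the 137 sites with a later H3K4me2/3 peak. These 137 sites had wider H3K4me3 peaks, with leptonema medians of 947 bp in experiment 1 and 875 bp in experiment 2, against 717.5 bp and 601 bp at the other 714. A later call needed only 1 bp of overlap with the whole site, so wider sites could collect one more easily. In the central 200 bp the late pachynema H3K4me2/3 share of the 851 sites was 2.12%, against 4.11% over whole sites. The 137 sites also held the CpG-rich sites: all 13 sites with 20 or more CpG in the central 500 bp had a later H3K4me2/3 peak, against 124 of 838 (14.8%) below that number, a limit chosen after the values were seen. Of the 22 sites near a RefSeq 5′ end, 8 (36.4%) had a later H3K4me2/3 peak, against 15.6% of the rest. The joint form of the motif was present near the centre at 26.3% of sites with a later H3K4me2/3 peak and 26.9% of those without one. None of these splits was tested.

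A pair of other sets was compared with the 851. The first was the 1674 distal sites with both zygonema calls, no leptonema call and no later call. In H3K4me2/3 lists, 60.7% of them had a peak in leptonema and 96.2% in zygonema, but the share was 1.79%, 0.597% and 0.179% from early pachynema on. In H3K9ac lists they had no peak in leptonema and one at 77.6% in zygonema. Over the 8 lists outside leptonema, the mean share was 27.1% at the 851 sites and 22.1% at the zygonema-only sites. It was higher at the 851 sites in 6 lists, lower in none and equal in 2, a difference of 5.09 percentage points (two-sided exact sign-flip permutation over lists, p = 0.0312, Benjamini-Hochberg adjusted over 2 comparisons p = 0.0625). With 2 lists equal, 0.0312 is the smallest p that this test allows. The adjusted p could therefore not pass the threshold of 0.05, and the test decides nothing. The chosen sites were also wider than the zygonema-only sites, with a median of 1486 bp against 914.5 bp, and with the calls read only in the central 200 bp of each site the difference was 4.88 percentage points. The second set was the 212 sites with the same H3K4me3 calls within 500 bp of a 5′ end, at transcription start sites (TSSs). Many of them had an H3K4me2/3 peak later, at 52.4%, 47.6% and 37.3% from early pachynema on. The 851 distal sites were lower in 4 of the 8 lists, higher in 1 and equal in 3, with a mean difference of -15.8 percentage points (exact sign-flip permutation p = 0.125, adjusted p = 0.125). With 3 lists equal, this test could not pass 0.05 either. At the 212 sites the mean number of CpG in the central 500 bp was 21.6, against 5.11 at the 851 sites and 4.29 at the zygonema-only sites.

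H3K4me3 peaks at the sites were wider in zygonema. In experiment 1 the median width over the 851 sites was 747 bp at leptonema and 1334 bp at zygonema, and in experiment 2 it was 641 bp and 1092 bp. Both zygonema medians were above both leptonema medians, by 519 bp on average. These lists chose the sites, and the difference is given without a test. Within experiment 1 the zygonema peak was the wider at 829 of the 851 sites (97.4%), and within experiment 2 at 727 (85.4%), and it was wider in both at 714 (83.9%). The whole lists had that order in experiment 1 only, with medians over all peaks of 586 bp (leptonema) and 673 bp (zygonema) in experiment 1, and 690 bp and 553 bp in experiment 2. H3K4me2/3 peaks had medians of 1107 bp in leptonema and 1464 bp in zygonema, and of 442 bp at the 120 sites with one in early pachynema. The H3K9ac peak of zygonema had a median of 1302 bp. The 20 sites with an H3K9ac peak in leptonema were wide ones, with leptonema medians of 1453 bp in experiment 1 and 1334.5 bp in experiment 2. Calls needed only 1 bp of overlap, so wider sites could collect them more easily. The peaks lay on top of each other: the centre of the zygonema H3K9ac peak was a median of 115 bp from the mean centre of the 4 H3K4me3 peaks, and that of the leptonema and zygonema H3K4me2/3 peaks 85.5 bp and 103.5 bp. The 120 early pachynema H3K4me2/3 peaks were further from it, at a median of 213 bp.

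**Figure D3:**
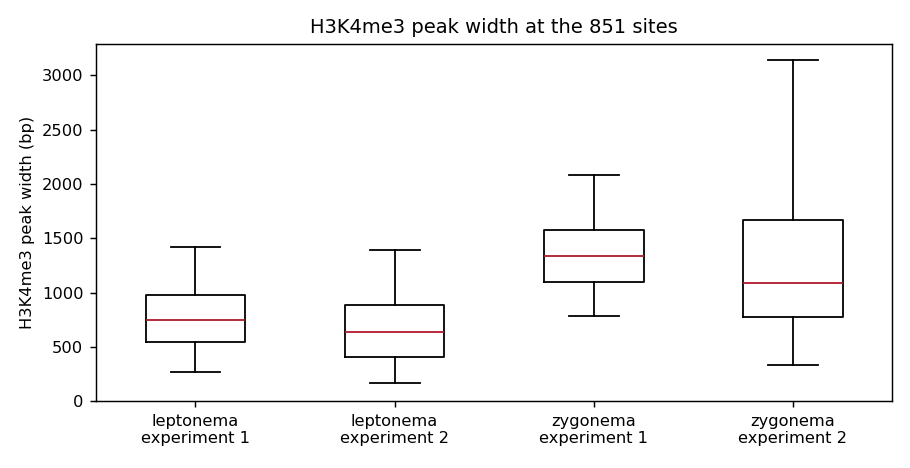
Width of the H3K4me3 peak in bp (vertical axis) at the 851 sites in the 4 lists that chose them (horizontal axis). Lines are medians, boxes the quartiles and whiskers the 5th and 95th percentiles. The medians went from 747 bp to 1334 bp between the stages in experiment 1 and from 641 bp to 1092 bp in experiment 2.

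The sites lay within genes more often than not. By its centre, a site was in an intron in 471 cases (55.3%, exact 95% binomial interval 51.9% to 58.7%), in an exon in 54 (6.35%, 4.80% to 8.20%) and between genes in 326 (38.3%, 35.0% to 41.7%). Distal sequence of chromosomes 1 to 19 is 43.3% intron, 4.01% exon and 52.6% intergenic. The zygonema-only sites had 53.2%, 5.79% and 41.0%, so that their intervals overlapped those of the 851 sites in every class. All other distal sites together had 45.2% in introns, 9.72% in exons and 45.1% between genes. Of the 525 genic sites, 480 were in protein-coding genes and 30 in lincRNA genes. Within the coding genes, cut into 3 equal parts from the 5′ end, the parts held 155, 160 and 165 sites. The median distance to the nearest 5′ end was 10979 bp (quartiles 4842 bp and 27584 bp), 82 sites were within 2000 bp and 119 were further than 50000 bp.

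**Figure D4:**
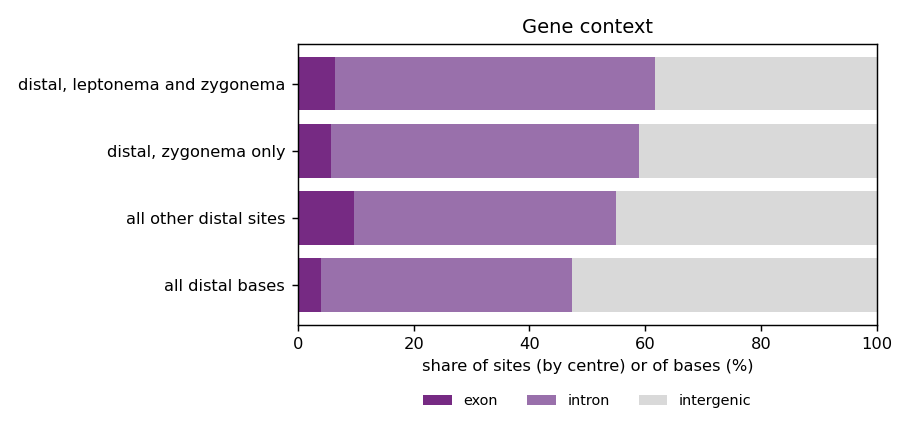
Gene context of the 851 sites, of the zygonema-only and all other distal sites, and of all distal bases of chromosomes 1 to 19, as stacked shares (horizontal axis, %). Introns held 55.3% of the 851 sites and 43.3% of the bases.

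The sites were spread thinly over genes. They fell in 513 genes, of which 475 held 1 site, 37 held 2 and 1 held 3. Among 20780 protein-coding genes, 451 (2.17%) held a site. The gene with 3 was Gm20388, a model that spans 4434882 bp of chromosome 8 and overlaps many other genes. The shortest genes with 2 sites were Rtel1 (a DNA helicase), at chr2:181336647-181338357 and chr2:181345536-181346802, Ift122 (a part of the intraflagellar transport machinery), Nol10 and Agps (an enzyme of ether lipid synthesis). Each site of these 4 genes had an H3K9ac peak in zygonema. Of 45 listed names of meiotic recombination and chromosome axis genes, such as Spo11, Dmc1, Hormad1 and Sycp3, 41 were in the annotation, and none of those genes held a site in its body. Hop2, a synonym of Psmc3ip, was among the 4 names not found in the annotation. The others were Top6bl, Iho1 and Six6os1, which were not looked for under other symbols. The absence of sites from the list stands beside a share of only 2.17% over all protein-coding genes.

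The widest sites were nearly all intronic. Ranked by the mean width percentile over the 4 leptonema and zygonema lists, the first was chr8:46998450-47008092 in an intron of Enpp6, a choline phosphodiesterase, with leptonema widths of 4781 bp and 4236 bp in experiments 1 and 2 and zygonema widths of 9643 bp and 5840 bp. This site, with the tandem array described above at its centre, had H3K4me2/3 peaks from leptonema to late pachynema but no H3K9ac peak at any stage. The second was chr8:32248359-32252204 in an intron of Nrg1, a ligand of ErbB receptors, with widths of 1960 bp, 1956 bp, 2380 bp and 3846 bp in the same order. It had H3K4me2/3 in leptonema and zygonema only and H3K9ac in zygonema only. The next were in introns of Plekha5, Dennd1a (an activator of Rab GTPases), Capzb (the beta subunit of actin capping protein), Ttk (a kinase of the spindle checkpoint) and Ankfn1. Each of those 5 had H3K4me2/3 and H3K9ac peaks in both leptonema and zygonema, as 20 of the 851 sites did. The remaining 3 of the 10 were chr2:147560295-147564157 between genes, with H3K9ac in both stages, and sites in introns of St8sia1 (a sialyltransferase) and Trip12 (a ubiquitin ligase) with H3K9ac in zygonema alone.

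A few sites had the other marks at later stages. The 4 sites with the most later calls had H3K4me2/3 at all 5 stages and H3K9ac in early pachynema. They were chr11:50370940-50372727, 4263 bp from a 5′ end of Hnrnph1 (an RNA-binding protein), chr3:96499689-96501919, chr1:86434075-86435244 near Tex44, and chr7:68128941-68130027 in an intron of Igf1r, the receptor of insulin-like growth factor. The site near Tex44 had 41 CpG in its central 500 bp. The site on chromosome 3 was 1836 bp and 1886 bp wide in the leptonema lists but 154 bp and 637 bp in the zygonema lists, the reverse of most sites. Another 10 sites had 3 later calls, and the one of these with the highest mean width percentile was chr4:134472283-134476185, 2541 bp from a 5′ end of Stmn1 (a tubulin-binding protein), with H3K4me2/3 at all 5 stages and H3K9ac in zygonema only. It also belonged to the closest pair of sites, 855 bp from chr4:134477041-134478320, which had no later call of either mark. The other close pairs were 2336 bp apart on chromosome 12 and 2519 bp apart in Ift122. Across all 851 sites the nearest other one was a median of 576087 bp away, and 48 had one within 50000 bp.

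Repeated DNA lay under a small number of sites. By the best period between 10 bp and 80 bp, a median of 29.7% of the bases of a site were equal to the base 1 period on, and 4 sites were over 60%. The highest was chr8:121823465-121825581, one of the 3 sites in Gm20388, where 98.6% of bases were equal to the base 51 bp on over 2117 bp. Over the whole Enpp6 site the value was 36.2%, at a period of 31 bp. Reads from such arrays can be hard to place. Repeat-masked bases made up a mean of 22.7% of the central 500 bp of the 851 sites and 21.9% of that of the zygonema-only sites.

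Along the chromosomes the sites were fewest near the centromere. Mouse chromosomes have the centromere at their start, and the first 10% of their length held 18 of the 851 sites (2.12%, exact 95% binomial interval 1.26% to 3.32%). The same stretch held 5.62% of the zygonema-only sites (4.56% to 6.83%) and 5.64% of all other distal sites. The share there was below that of the zygonema-only sites on 15 of 19 chromosomes, above it on 3 and equal on 1, and it was below that of all other distal sites on all 19. On 9 chromosomes it held none of the 851 sites. The next 10% of the length held 6.46%, and each of the other 8 parts held between 9.05% and 13.6%. Within 5 Mb of the other end lay 4.94% of the sites, against 4.48% of the zygonema-only sites and 5.07% of all other distal sites.

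**Figure D5:**
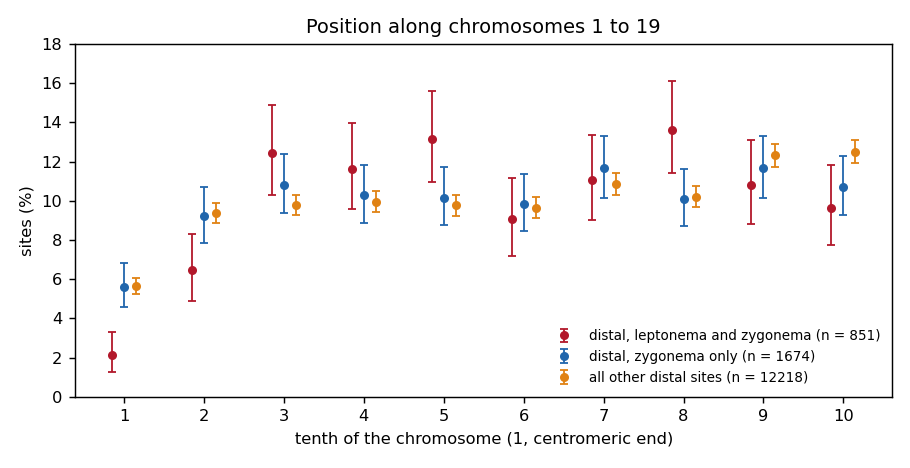
Share of sites (vertical axis, %) in each of 10 equal parts of the chromosome from the centromeric end (horizontal axis), summed over chromosomes 1 to 19, with exact 95% binomial intervals. The first part held 2.12% of the 851 sites and 5.62% of the zygonema-only distal sites.

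Chromosomes differed in their number of sites. The mean density was 0.346 sites per Mb, with the highest values on chromosome 11 (0.475) and chromosome 8 (0.456) and the lowest on chromosome 18 (0.132), which held 12. On chromosome 18 the sites made up 15.2% (8.10% to 25.0%) of those marked in zygonema alone or in both stages, against 33.7% over all chromosomes and between 25% and 41.5% on each other one. Chromosome 18 was singled out after the values were seen, as the lowest of 19, and the difference was not tested.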

How the data were processed

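ChIP-Seq peaks of sorted testis nuclei were analysed from 20 deposited peak lists (10 H3K4me3, 5 H3K4me2/3 and 5 H3K9ac). The other 31 samples were not analysed here. For the 20 lists, the authors used BWA mem and the mm10 genome, and H3K4me3 peaks were called per library with MACS2 in broad mode against input of the same stage. For H3K9ac only a general software statement was found. The submitters' processing notes name BWA 0.7.12, MACS2 2.1.2 and deepTools 3.0.1. The deposited lists give only chromosome, start and end of each peak, so that the unit of the values is a base position, and no score, signal or depth. The precision of a call is therefore unknown, and intervals are exact binomial (95%) over sites, covering counting error only.

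Peaks were merged with bedtools 2.31.1 and analysed in Python 3.11.15 (numpy 2.4.6, scipy 1.17.1), with overlaps of at least 1 bp. Distances run from the edge of a site to the nearest GENCODE M21 5′ end, and context was taken at its centre. Word counts used windows of 100 bp on either side of the centre and flanks of 200 bp. Experiments 1 and 2 are separate libraries of a stage, and nothing used here says which animals each came from, so p-values measure only the spread between lists. The tests were exact permutation tests over lists, two-sided, with a threshold of 0.05. The steps were checked on simulated lists with known sites.

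Sites named were the 10 widest by mean percentile, those with both marks in both early stages, those with most later calls, those nearest the distance limit, the closest pairs and the genes with most sites. The rule also took sites at hotspots annotated in the paper's supplementary tables, which are not reported here. The sites, lists and tests were chosen with earlier results of these data known. The alternatives were a larger overlap, wider peaks, equal list sizes, a merge distance of 500 bp, a limit of 2000 bp, protein-coding 5′ ends, 1 later call allowed, each library left out, a replicate block, mean widths, all 10 lists and a wider word window. Calls in the central 200 bp and leaving out lists of the other marks were added after seeing the data.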

Additional observations from a re-analysis of the deposited data

How the results depend on the processing

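The peak lists hold no depth, so what depth limits could not be tested. Of 405 values under alternatives, 377 kept their direction and their side of the threshold, stayed within their interval or, for the number of sites, within 1.5 times. Another 25 shares or counts moved further, 1 difference lost its call and 2 gained one. The 1 that lost it was the early minus late difference of both marks, whose direction the choice of sites largely set. The 2 that gained one were the comparisons of sets with the leptonema lists included. None of these changes of call is read as a result. No tested difference changed sign. The count of 377 is not a measure of robustness, since part of it had no room to change. With so few lists, the early minus late difference of each mark alone and the peak width difference could not pass the threshold. Without H3K4me3 early pachynema experiment 2, either late pachynema list or diplonema experiment 1, the number of sites stayed at 851. The shares of these sites were then unchanged too. With the wider peaks of each list 324 sites met the rule, and with equal H3K4me3 list sizes 217. Leaving out 1 H3K4me3 list gave 851 to 1289 sites, the most without leptonema experiment 2. With the wider peaks the H3K4me2/3 shares were 97.5% in leptonema and 4.01%, 1.23% and 0.617% from early pachynema on, and the H3K9ac shares 4.32% in leptonema, 88.9% in zygonema and 0% in early pachynema. With equal list sizes the H3K4me2/3 shares were 100% in leptonema, 24.0% in early pachynema and 6.91% in late pachynema, and H3K9ac in leptonema was at 8.76%. In the central 200 bp of each site, H3K4me2/3 was at 98.8%, 10.2% and 2.12% in leptonema, early pachynema and late pachynema, and H3K9ac at 1.29% in leptonema and 89.4% in zygonema. With 1 H3K4me3 list left out, H3K4me2/3 ranged from 98.4% to 99.8% in leptonema and from 10.7% to 14.8% in early pachynema, and the exon share from 6.10% to 8.93%. The leading word was held by 2.84% of sites with the wider peaks, 3.25% with equal list sizes and 11.5% in a window of 250 bp either side.

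The early minus late difference of both marks was 72.8 percentage points without the early pachynema lists and 47.6 to 94.3 with 1 list left out. No p is given, since the choice of sites largely set its direction. With all 10 lists, leptonema included, the 851 sites exceeded the zygonema-only sites by 8.22 percentage points. From the TSS sites they differed by -13.5. The comparisons had been set over lists outside leptonema, because the leptonema H3K4me3 calls chose the sites, and no p is given with leptonema included. In the comparisons over lists outside leptonema, leaving out 1 list gave adjusted sign-flip p from 0.0625 to 0.125 for the zygonema-only sites. For the TSS sites it was from 0.0938 to 0.25. With the replicate block, zygonema peaks were wider by 587 bp in experiment 1 and 451 bp in experiment 2, a mean of 519 bp, as without it. The cause of these changes was not tested.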
